A study of Mus musculus with 4 samples.

Results

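The ATP-dependent chromatin remodelers were examined in late two-cell mouse embryos treated with an inhibitor of MYC. The genes were taken by symbol (Smarca to Smarce, Chd1 to Chd9, Ino80, Arid1, Arid2, Mbd2, Mbd3, Mta, Baz1 and Baz2 genes, together with Bptf, Atrx, Hells, Pbrm1, Daxx and Srcap), which gave 47 of the 24411 genes listed in each library. Of these, 45 are protein-coding genes, 1 is the antisense RNA Ino80dos and 1 is the pseudogene Smarca5-ps. By complex, 13 belong to SWI/SNF, 7 to ISWI, 14 to the CHD proteins and NuRD, 6 to INO80 and SRCAP, and 5 to other SNF2-type remodelers with the ATRX partner Daxx. Of the protein-coding genes, 19 encode an ATPase and the rest encode subunits or partner proteins.

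ICR embryos were produced by in vitro fertilization and cultured in KSOM containing bovine serum albumin, and 10 embryos were pooled for each library at 36 hours post-insemination (hpi). Control embryos received DMSO, the solvent, and 10074-G5-treated embryos received 6 µM of 10074-G5, a small molecule that binds MYC and hinders its pairing with MAX. There were 2 libraries in each group, described as biological replicates, and the treatment started at 3 hpi according to the sample labels and at 6 hpi according to the design text. Polyadenylated RNA was amplified with a full-length cDNA kit, and the 4 libraries held between 18206584 and 20718690 expected counts.

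Chromatin remodelers use ATP to move, eject or exchange nucleosomes. SWI/SNF complexes slide and evict nucleosomes and open regulatory DNA, and ISWI complexes space nucleosomes into regular arrays. CHD proteins act at active genes and, as CHD3, CHD4 or CHD5 in NuRD, join remodeling to histone deacetylation, while INO80 and SRCAP handle the histone variant H2A.Z. In the two-cell embryo these machines work on a genome whose transcription has only recently begun, partly from proteins and mRNAs stored in the oocyte.

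MYC and MAX bind the E-box CACGTG, which reads the same on both strands. RefSeq promoter sequences of GRCm38.p6, from 250 bases before to 50 bases after a transcript start, were found for 35 of the 47 genes, and 3 of these genes (8.57%) held CACGTG. The share was 11.5% for the tested genes with a promoter. Counted by promoter, it was 6.82% (3 of 44) for these genes and 9.71% for the tested genes. Over all 32851 promoters it was 7.15%. The 3 matches are printed with their surroundings because they are where the inhibited factor's motif lies near a remodeler's start, with the E-box in capitals.

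Bptf (chr11:107132167-107132208, minus strand, E-box from position -43): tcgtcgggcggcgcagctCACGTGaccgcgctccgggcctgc
Ino80e (chr7:126862567-126862608, minus strand, E-box from position -218): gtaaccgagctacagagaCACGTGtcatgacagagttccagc
Pbrm1 (chr14:31018985-31019026, plus strand, E-box from position -135): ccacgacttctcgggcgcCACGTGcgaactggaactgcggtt

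All 3 sites lie upstream of the start in their gene's own orientation. The match is a description of the sequence and not of binding. These 3 genes had log2 fold changes (log2FC) between treated and control embryos of -0.35 (Bptf), -0.40 (Ino80e) and -0.47 (Pbrm1). Without the control library DMSO replicate 1, which stood apart from the rest, they were -0.16, 0.11 and -0.16, so that Ino80e turned direction. No CACGTG was found in the windows of Ino80, Mta2, Smarca4, Smarcc1, Smarca5 and Smarca2, which says only that these letters are not there.

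The level of each gene was read as FPKM, which accounts for transcript length, and the difference between the groups was taken from CPM (counts scaled to library size) scaled with TMM factors. DMSO replicate 1 differed most from the other 3 libraries. It differed from DMSO replicate 2 by more than 2-fold for 31.1% of 13549 tested genes, while DMSO replicate 2 differed so from the treated replicates for 17.6% and 12.6%. Among the 46 remodeler genes tested, 9 differed by more than 2-fold between the DMSO replicates and 1 between the treated replicates. DMSO replicate 2 differed by more than 2-fold from treated replicate 1 for 4 remodeler genes and from treated replicate 2 for 0. A log2FC without DMSO replicate 1 is therefore given wherever leaving it out turned a printed log2FC or moved it by more than 1.5 times.

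Markers fixed for the embryo and for possible other cells were read in the same libraries. The 11 listed two-cell markers summed to between 4376 and 4918 CPM in all libraries, but their members moved in opposite ways. Dppa2 had 1794 and 359 CPM in control and 169 and 178 CPM in treated embryos, and Dppa4 had 1633 and 688 CPM against 269 and 399.8 CPM. The other 9 had log2FC values above 0, such as 1.14 for Zscan4d and 1.15 for Tcstv1, or 0.36 and 0.52 without DMSO replicate 1. Of these 9, Zscan4c and Tdpoz4 overlapped between the groups. Tdpoz4 turned direction, from 0.21 to -0.04, without DMSO replicate 1. Transcripts stored by the oocyte (16 genes) summed to 1565 and 3129 CPM in control and 6451 and 5245 CPM in treated embryos. This sum moved with the groups and was lowest in DMSO replicate 1. Oog1, Oosp1 and Bmp15 were its highest genes in treated embryos. Zp3 went the other way, with 244 and 75.1 CPM in control and 59.1 and 63.9 CPM in treated embryos. Its log2FC was -1.37, and -0.27 without DMSO replicate 1. Khdc3 and Figla overlapped between the groups (log2FC -0.14 and -0.05, or 0.33 and -0.84 without DMSO replicate 1). The remaining genes of this list had log2FC values above 0 over all libraries, and of these Sohlh1 turned, from 0.64 to -0.33, without DMSO replicate 1. Cumulus markers (10 genes) summed to 42.6 and 20.9 CPM in control and 20.6 and 10.4 CPM in treated embryos and were highest in DMSO replicate 1. Amhr2 made up most of this sum in DMSO replicate 1 (41.1 CPM) and had 13.8 CPM in DMSO replicate 2 and 8.95 and 7.01 CPM in treated embryos, while Ptx3, Foxl2, Amh, Inha and Inhba were at 0. The part of these lists in the differences of the remodeler genes was not tested. Sperm markers summed to between 1.43 and 5.43 CPM over 6 genes, with Prm1 and Tnp2 at 0. Later embryo markers (7 genes) summed to between 8.08 and 34.7 CPM.

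Remodeler mRNAs were present at very different levels (the plot of FPKM by library). Smarca5, which encodes SNF2H, the ATPase of nearly all ISWI complexes, was the highest remodeler in control embryos, with 284 and 183 FPKM. In treated embryos it had 130 and 139 FPKM. Smarca2, which encodes the SWI/SNF ATPase BRM, had 29.8 and 172 FPKM in control and 214 and 227 FPKM in treated embryos. Of the genes that encode an ATPase, Smarca5 was thus first in both control libraries and Smarca2 in both treated libraries. Nearly all of the Smarca2 signal came from a short transcript without the helicase core, described with Smarca2, and by the estimate given there Smarca5 led the transcripts that encode an ATPase in all 4 libraries. In total signal, short transcript included, Smarca5 and Smarca2 were nearly equal in DMSO replicate 2 (183 and 172 FPKM).

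Hells, the lymphoid-specific helicase that aids DNA methylation, had 49.3 to 66.7 FPKM. It was above Smarca2 in DMSO replicate 1 and below it in the other libraries. Atrx, the helicase that deposits H3.3 together with DAXX, had 31.1 to 57.1 FPKM, and the ranges of Hells and Atrx overlap. In DMSO replicate 1, Chd1 (36.7 FPKM) and Smarcad1 (31.2 FPKM) were also above Atrx. Among the subunits chosen by symbol, Mta3 of NuRD (73.7 to 128 FPKM) and Baz1a of the ACF and CHRAC complexes (52.6 to 77.3 FPKM) were highest. Between 6 and 8 of the 47 genes were under 1 FPKM in each library.

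**Figure D1:**
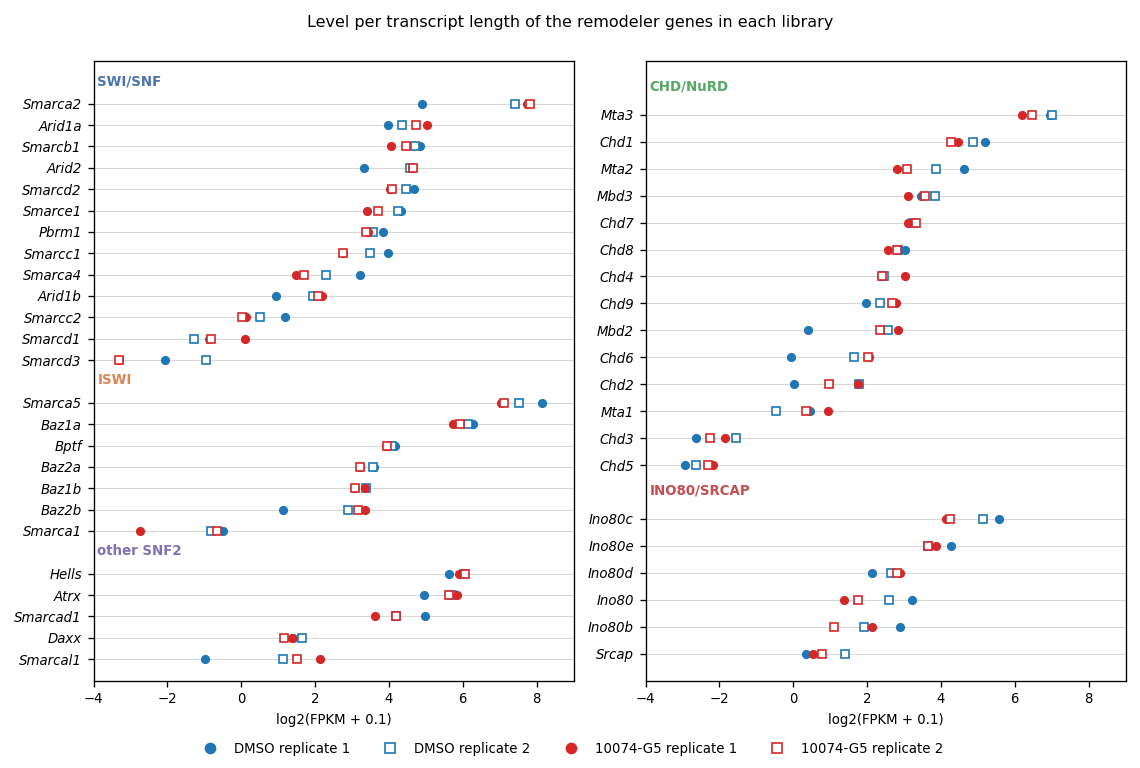
Level of the 45 protein-coding remodeler genes in each library, as log2(FPKM + 0.1), grouped by complex and ordered by the mean level; blue marks DMSO and red 10074-G5, filled circles replicate 1 and open squares replicate 2. Smarca5, Smarca2 and Mta3 lead their families, and Smarca2 is far lower in DMSO replicate 1 (29.8 FPKM) than in the other 3 libraries (172 to 227 FPKM).

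The comparison of treated with control embryos asks how the remodelers respond when MYC is inhibited. Under the thresholds of |log2FC| above 1 and an adjusted p below 0.05 (Benjamini-Hochberg), the quasi-likelihood test of edgeR called 0 of the 46 tested remodelers, as it called 0% of all tested genes, where no adjusted p was below 0.333. Unadjusted p-values below 0.05 were found for 5 remodelers with a lower level (Ino80, Ino80c, Mta2, Smarca4 and Smarcc1), which is 10.9% against 10.1% of all tested genes. They were found for 0 remodelers with a higher level, against 4.72% of all tested genes. DESeq2 called Ino80 and Mta2 down-regulated and 0 remodelers up-regulated under each of its 3 settings. Of all genes, these settings called 3.48% down-regulated and 0.701% up-regulated among the genes tested by edgeR, 2.4% and 0.478% among genes with at least 1 count, and 2.36% and 0.456% with transcript lengths. The groups did not overlap, with lower values in treated embryos, for 21 remodelers (45.7%, against 28.3% of all tested genes). They did not overlap in the other direction for 11 (23.9%, against 28.9%). With 2 libraries in each group, the smallest two-sided p of an exact permutation test for 1 gene is 0.333.

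Ino80, on chromosome 2 of GRCm38.p6 from 119373042 to 119478685, encodes the ATPase that names its complex. It had 63.1 and 34.4 CPM in control and 14.5 and 18.5 CPM in treated embryos. Both treated libraries were below both control libraries. The log2FC was -1.56 (standard error 0.47), with a Benjamini-Hochberg adjusted p of 0.333 in edgeR's quasi-likelihood test and of 0.0436 to 0.0450 by DESeq2. Without DMSO replicate 1 the log2FC was -1.04. In samples of whole embryos, fewer cells with a transcript and less of it per cell cannot be told apart.

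Mta2, on chromosome 19 from 8941920 to 8952300, encodes a scaffold subunit of NuRD that holds the histone deacetylases. It had 78.6 and 39.0 CPM in control and 18.5 and 22.1 CPM in treated embryos. Again the groups did not overlap, and the control libraries differed from each other by about as much as DMSO replicate 2 differed from the treated ones. The log2FC of Mta2 was -1.53 (standard error 0.47), with an adjusted p of 0.333 by edgeR's quasi-likelihood test and of 0.0456 to 0.0482 by DESeq2. It was -0.93 without DMSO replicate 1.

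Of the 12 tested SWI/SNF genes, 7 were lower and 5 higher in treated embryos. Smarca4, on chromosome 9 from 21616106 to 21704230, encodes BRG1, the main ATPase of the complex in early embryos. It had 63.6 and 28.3 CPM in control and 15.7 and 18.2 CPM in treated embryos. The groups did not overlap, and the log2FC was -1.44 (standard error 0.51, unadjusted p = 0.0233, adjusted p = 0.333 by edgeR's quasi-likelihood test). It was -0.72 without DMSO replicate 1.

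Smarcc1 encodes BAF155, a core scaffold subunit, and had 97.1 and 57.2 CPM in control against 34.7 and 34.0 CPM in treated embryos. The groups did not overlap. Smarcc1 had a log2FC of -1.17 (standard error 0.42), with an adjusted p of 0.333 in the same edgeR quasi-likelihood test, and one of -0.72 without DMSO replicate 1. The span of Smarcc1 overlaps that of Dhx30, and whether reads were counted by strand is not given in the sources used here. The other core subunits were lower by smaller amounts. These were Smarcc2 (log2FC -1.06), Smarce1 (-0.87), Smarcd2 (-0.67) and Smarcb1 (-0.65), and none of their groups overlapped. They were -0.50, -0.68, -0.41 and -0.42 without DMSO replicate 1.

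The 3 ARID subunits, which help to direct SWI/SNF to its sites, were higher. Arid1a, the signature subunit of the canonical BAF complex, had 142 and 155 CPM in control and 249.1 and 197 CPM in treated embryos. Both treated libraries were above both control libraries, and the log2FC of 0.59 (standard error 0.35) was 0.54 without DMSO replicate 1. Its adjusted p was 0.427 by edgeR's quasi-likelihood test. The related Arid1b had a log2FC of 0.51 and Arid2, of the PBAF complex, of 0.48. Both were 0.17 or less without DMSO replicate 1, at 0.17 and 0.08. Pbrm1, the polybromo subunit of PBAF, was lower, at -0.47 (-0.16 without DMSO replicate 1), and its span overlaps Gnl3 and Smim4.

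The least expressed SWI/SNF genes were near the limit of detection. Smarcd3, the variant BAF60C of heart and muscle, had counts of 4 and 11 in control and 0 and 0 in treated embryos, where a count of 0 allows up to 3 counts. It was the only one of the 47 genes to miss the filter on low counts. Smarcd1 had between 0.847 and 2.69 CPM, with overlapping groups.

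Smarca2, on chromosome 19 from 26605073 to 26778321, had 59.1 and 283 CPM in control and 350 and 366 CPM in treated embryos. DMSO replicate 1 was far below the rest, and the other 3 libraries were close to each other. The log2FC was 1.07 (standard error 0.66, adjusted p = 0.441 by edgeR's quasi-likelihood test) over all libraries, 0.36 without DMSO replicate 1 and 2.60 without DMSO replicate 2.

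Nearly all of this signal came from a short transcript. In the GENCODE annotation Smarca2 has a full-length transcript of 33 exons and 5921 bases, and a short one of 9 exons and 1962 bases that starts 143 kb downstream. The short form shares the last 14.9% of the coding sequence, 708 of 4749 coding bases. That end of the protein holds the bromodomain and lacks the helicase core. The transcript length assigned to Smarca2 by RSEM, weighted by the isoforms it estimated, was 2011 and 1989 bases in control and 1977 and 1985 bases in treated embryos. All 4 values are within 50 bases of the short form.

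With the GENCODE lengths, the full-length form made up an estimated 1.24% and 0.678% of Smarca2 in control and 0.370% and 0.583% in treated embryos. Its level would then be 0.369 and 1.16 FPKM in control and 0.791 and 1.33 FPKM in treated embryos, with overlapping groups. These estimates depend on the exact length of the short form, which is not given in the sources used here. If that form were 10 bases longer or shorter, the 4 estimates would lie between 0.251 and 1.89 FPKM. The shift of 10 bases was an arbitrary choice. For Smarcad1 the RSEM length was 5098 bases and the matching GENCODE length 5168, so the true range may be wider. Smarca4 had 9.11 and 4.82 FPKM in control and 2.68 and 3.17 FPKM in treated embryos. These values were above the estimate for full-length Smarca2 in every library, with GENCODE lengths or a shift of 10 bases. Larger shifts were not computed. Smarca2 also overlaps an antisense gene, 4931403E22Rik, which had a count of 0 in all libraries.

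Of the ISWI genes, 6 of 7 were lower and 1 was higher in treated embryos. Smarca5, on chromosome 8 from 80699943 to 80739459, had 1418 and 767 CPM in control and 545 and 572 CPM in treated embryos. The treated libraries were close to each other and below both controls. The log2FC was -0.97 (standard error 0.43, unadjusted p = 0.0548, adjusted p = 0.343 by edgeR's quasi-likelihood test), and -0.44 without DMSO replicate 1.

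Smarca5-ps, a near-identical copy on chromosome 4, had between 4.20 and 9.13 FPKM for every 100 FPKM of Smarca5. Reads of the copies can be lost or shared when only uniquely mapped reads are kept, so the values of Smarca5-ps are uncertain. Smarca1, the other ISWI ATPase, encodes SNF2L and is known from the nervous system. It had between 0.05 and 0.61 FPKM, with overlapping groups.

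Among the ISWI subunits, Baz1a had 523 and 398 CPM in control and 299 and 336 CPM in treated embryos (log2FC -0.54, and -0.31 without DMSO replicate 1). Baz2a, the TIP5 subunit of the complex that silences ribosomal genes, had a log2FC of -0.52 and Bptf, the largest subunit of NURF, of -0.35, or -0.36 and -0.16 without DMSO replicate 1. Neither pair of groups overlapped. Baz1b, of the WICH complex, had 59.3 and 61.4 CPM in control and 59.9 and 49.0 CPM in treated embryos, and the log2FC was -0.15 with overlapping groups. Baz2b alone was higher, with 18.6 and 54.0 CPM in control and 75.2 and 64.2 CPM in treated embryos (log2FC 0.94, standard error 0.54, adjusted p = 0.417 by edgeR's quasi-likelihood test). It was 0.38 without DMSO replicate 1.

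The CHD and NuRD genes went both ways, with 7 lower and 7 higher. Chd1, which keeps chromatin open at transcribed genes, had 321 and 214 CPM in control and 161 and 139 CPM in treated embryos. Its groups did not overlap, and the log2FC was -0.84 (standard error 0.38, adjusted p = 0.344 by edgeR's quasi-likelihood test), or -0.50 without DMSO replicate 1. Its relative Chd2 had 9.28 and 28.2 CPM in control and 27.4 and 15.5 CPM in treated embryos, with overlapping groups. Its log2FC was 0.19, and -0.38 without DMSO replicate 1.

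Mta3, the highest of the NuRD genes chosen by symbol, had 209 and 179 CPM in control and 103 and 121 CPM in treated embryos. The transcript length that RSEM assigned to Mta3, over 4 isoforms, was 1729 to 1739 bases. The matching GENCODE transcripts run from 1723 to 2674 bases. By this estimate most of the Mta3 signal came from short transcripts, and what they encode was not examined. The control replicates of Mta3 were close to each other, and the log2FC of -0.79 (standard error 0.35, adjusted p = 0.343 by edgeR's quasi-likelihood test) was -0.66 without DMSO replicate 1. Chd4, the main NuRD ATPase, had 35.9 and 31.7 CPM in control and 47.8 and 29.9 CPM in treated embryos, with overlapping groups and a log2FC of 0.20 (0.31 without DMSO replicate 1). Chd3 and Chd5, the alternative NuRD ATPases, were at 1.59 CPM or less in every library.

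Mbd3, a NuRD subunit of the methyl-CpG binding domain family, had a log2FC of -0.42, with no overlap between the groups. Its alternative Mbd2 had a log2FC of 0.71, with overlap. That of Mbd2 was 0.04 when DMSO replicate 1 was left out and 2.02 when DMSO replicate 2 was. Mta1 had between 1.48 and 4.36 CPM, with overlapping groups. Chd6, of the CHD6 to CHD9 subfamily, had 10.1 and 29.9 CPM in control and 39.9 and 38.4 CPM in treated embryos (log2FC 0.97, standard error 0.56, adjusted p = 0.421 by edgeR's quasi-likelihood test). This was 0.41 without DMSO replicate 1. Chd9 was higher by a log2FC of 0.44, with 48.8 and 54.1 CPM in control and 73.2 and 66.2 CPM in treated embryos, and by 0.38 without DMSO replicate 1.

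Chd8, a remodeler linked to beta-catenin target genes, had 72.6 and 53.3 CPM in control and 43.9 and 52.1 CPM in treated embryos, and its log2FC was -0.39 (-0.13 without DMSO replicate 1). Chd7, the gene of CHARGE syndrome, was level at 89.5 to 109 CPM with overlapping groups (log2FC -0.11, and -0.0271 without DMSO replicate 1), and its direction turned when library totals replaced TMM factors (0.03).

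INO80 and SRCAP held 5 lower and 1 higher of 6 genes. Ino80c, a small INO80 subunit encoded on chromosome 18, had 112 and 69.8 CPM in control and 35.3 and 37.4 CPM in treated embryos. The groups did not overlap, and the log2FC was -1.33 (standard error 0.40, unadjusted p = 0.0123, adjusted p = 0.333 by edgeR's quasi-likelihood test), or -0.93 without DMSO replicate 1. By DESeq2 the adjusted p of Ino80c lay between 0.0524 and 0.0563.

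Srcap, the ATPase that deposits H2A.Z, had 14.1 and 25.8 CPM in control and 13.9 and 16.1 CPM in treated embryos. The groups overlapped, since DMSO replicate 1 was level with the treated libraries, and the log2FC was -0.41 (-0.77 without DMSO replicate 1). Ino80b and Ino80e also overlapped between the groups, with log2FC values of -0.97 and -0.40. Without DMSO replicate 1 these were -0.21 and 0.11, so that Ino80e turned direction, and the span of Ino80e overlaps Doc2a and Hirip3. Ino80d was higher by a log2FC of 0.34 (0.23 without DMSO replicate 1), with 64.2 and 77.8 CPM in control and 93.8 and 86.5 CPM in treated embryos. The antisense RNA Ino80dos next to it had 4.07 and 8.63 CPM in control and 11.7 and 12.8 CPM in treated embryos. The spans of Ino80d and Ino80dos overlap in GENCODE and not in RefSeq, and without strand, reads in such an overlap cannot be told apart.

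Among the other SNF2-type genes, Smarcad1, a remodeler of heterochromatin behind the replication fork, had 172 and 84.7 CPM in control and 56.7 and 82.9 CPM in treated embryos. DMSO replicate 2 and treated replicate 2 were nearly equal, and the log2FC of -0.88 was -0.26 without DMSO replicate 1. Smarcal1, which anneals DNA at stalled forks, had 2.99 and 13.03 CPM in control and 26.5 and 16.6 CPM in treated embryos (log2FC 1.42, standard error 0.73, adjusted p = 0.379 by edgeR's quasi-likelihood test). It had the largest log2FC above 0 among the remodelers and was 0.74 without DMSO replicate 1.

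Atrx had 355 and 504 CPM in control and 547 and 463 CPM in treated embryos, with overlapping groups. Hells was level, with 155 and 173 CPM in control and 156 and 173 CPM in treated embryos. Daxx had 4.58 to 6.72 CPM, and its log2FC was -0.41. Reads may also be shared where the spans of Chd2, Srcap, Arid1a, Chd4, Chd8 and Smarcd3 overlap those of other listed genes, mostly small RNAs.

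The families were then set side by side (the plot of log2FC by family). The median log2FC was -0.56 for 12 SWI/SNF genes, -0.52 for 7 ISWI genes, 0.04 for 14 CHD and NuRD genes and -0.69 for 6 INO80 and SRCAP genes. For all 46 tested remodelers it was -0.37 and for all tested genes 0.04. Of the 46, 29 were lower in treated embryos (63.0%, against 48.5% of all tested genes), 7 had a log2FC below -1 (against 17.8% of all tested genes) and 3 one above 1 (against 18.1%). Without DMSO replicate 1 the log2FC of 29 was still below 0, with Chd2 and Ino80e turned in opposite directions. Without DMSO replicate 1 the medians were -0.29 for SWI/SNF, -0.31 for ISWI, -0.08 for CHD and NuRD, -0.49 for INO80 and SRCAP and -0.19 for all tested remodelers. DMSO replicate 1 was farther from the treated libraries than DMSO replicate 2 for 37 of the 46 (80.4%, against 76.8% of all tested genes).

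Differences between families were computed within each library, from the median log2 CPM of each family centred on each gene's mean. The median of CHD and NuRD minus that of INO80 and SRCAP was -0.64 and 0.02 in control and 0.39 and 0.36 in treated embryos. SWI/SNF minus CHD and NuRD was 0.43 and -0.04 in control and -0.49 and -0.14 in treated embryos. For ISWI minus CHD and NuRD the values were 0.33 and -0.04 in control and -0.48 and -0.12 in treated embryos. In these 3 pairs the groups did not overlap, and in each the spread between the DMSO replicates was wide. Of 6 pairs of families compared, 4 reached the smallest p that an exact permutation test of these libraries can give, 0.333, which is 0.500 after adjustment over the 6 pairs, so these libraries cannot show a significant difference between families.

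**Figure D2:**
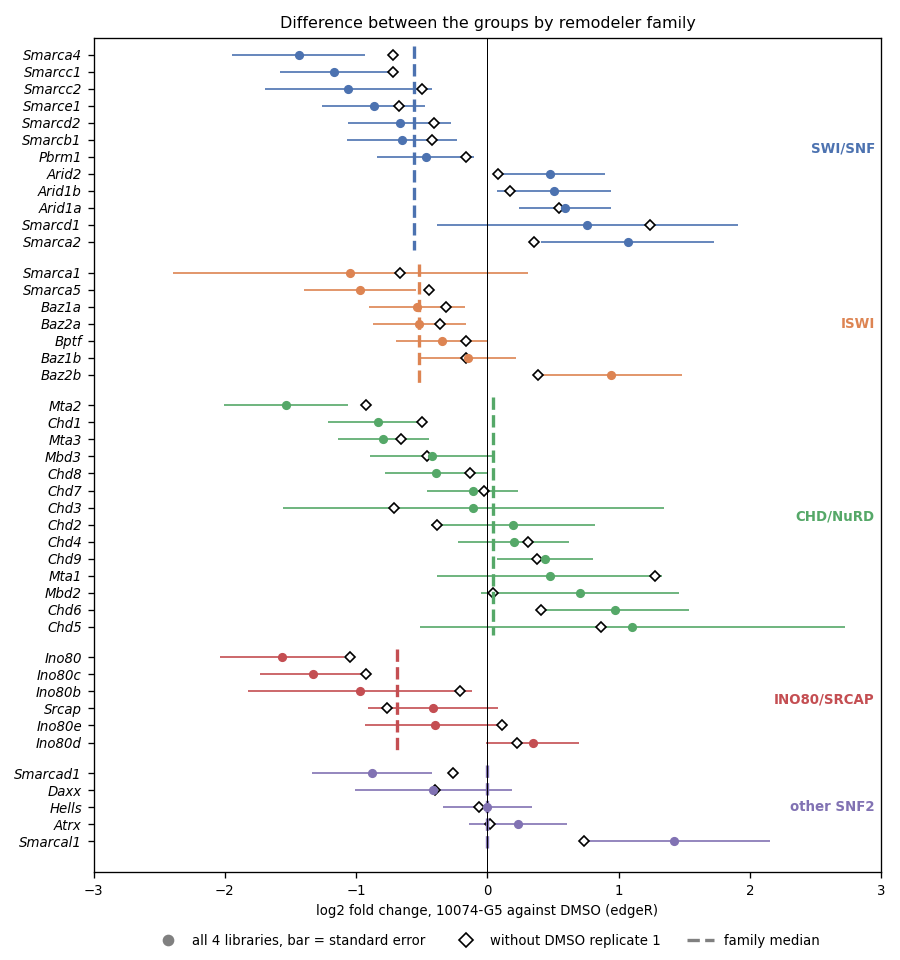
log2 fold change of the 44 tested protein-coding remodelers (edgeR, 10074-G5 against DMSO), ordered within each complex; circles with bars are estimates with standard errors from all 4 libraries, diamonds are estimates without DMSO replicate 1 and dashed lines are family medians. Most diamonds lie closer to 0 than the circles, and the medians run from -0.69 (INO80/SRCAP) to 0.04 (CHD/NuRD).

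The summed level of each family was compared in the same way. ISWI summed to 402 and 299.5 FPKM in control and 227 and 242 FPKM in treated embryos. CHD and NuRD summed to 227 and 226 FPKM in control and 156 and 168 FPKM in treated embryos, with control libraries that were nearly equal. Mta3 was the largest part of this sum, with 124.91 and 128.2 FPKM in control and 73.65 and 87.95 FPKM in treated embryos. Chd1 and Mta2 were also lower. By gene the family went both ways, with 7 of 14 lower, 7 higher and a median log2FC of 0.04. INO80 and SRCAP summed to 88.2 and 65.5 FPKM in control and 47.6 and 45.2 FPKM in treated embryos. In all 3 sums the treated libraries were below both control libraries, the smallest p of the exact permutation test being 0.333. Smarca5 had the highest level of the ISWI genes in every library, and Ino80c that of the INO80 and SRCAP genes. The highest genes weigh most in such sums, so a sum alone does not show whether a decrease ran across its family. Sums without these genes were not taken.

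SWI/SNF summed to 173 and 315 FPKM in control and 341 and 356 FPKM in treated embryos, and Smarca2 made up most of this in every library but DMSO replicate 1. Without it, the other 12 genes summed to 144 and 144 FPKM in control and 127 and 129 FPKM in treated embryos. The direction of the SWI/SNF sum thus turned with 1 gene, the one whose reads came mainly from the short transcript.

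Paralogs were compared as shares of their summed FPKM, which do not depend on the scaling of the libraries (the plot of paralog shares). Only some sets take the same place in a complex. Others, such as Baz1a and Baz1b, belong to separate complexes, so a share is not a measure of subunit exchange. Baz2a made up 85.1% and 61.9% of Baz2a and Baz2b in control and 47.4% and 51.2% in treated embryos. The mean share was 73.5% ± 16.4 in control and 49.3% ± 2.69 in treated embryos (SD over 2 libraries). Mbd3 made up 89.9% and 70.7% of Mbd2 and Mbd3 in control and 54.9% and 69.9% in treated embryos, where DMSO replicate 2 and treated replicate 2 were nearly equal. Neither share can be tested below the exact permutation p of 0.333.

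In the set of Chd6 to Chd9, the share of Chd8 was 37.6% and 28.7% in control and 23.1% and 25.7% in treated embryos. That of Chd6 was 4.04% and 12.4% in control and 16.1% and 14.7% in treated embryos. Mta3, short transcripts included, dominated its set, with 82.9% and 89.5% in control and 89.5% and 90.3% in treated embryos. Mta2 held 16.2% and 10.1% in control and 8.32% and 8.55% in treated embryos. Smarca2, short form included, made up 76.6% and 97.3% of Smarca2 and Smarca4 in control and 98.8% and 98.6% in treated embryos.

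Several sets were led by the same paralog in all libraries. Smarca5 held at least 99.6% of the ISWI ATPases, Chd4 at least 94.7% of the NuRD ATPases, Smarcd2 at least 94.3% of its set and Chd1 at least 87.1% of Chd1 and Chd2. Smarcc1 made up 87.1% to 89.3% of Smarcc1 and Smarcc2, Arid1a 84.3% to 89.7% of Arid1a and Arid1b, and Baz1a 83.9% to 90.2% of Baz1a and Baz1b. For the last 3 sets the groups overlapped.

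**Figure D3:**
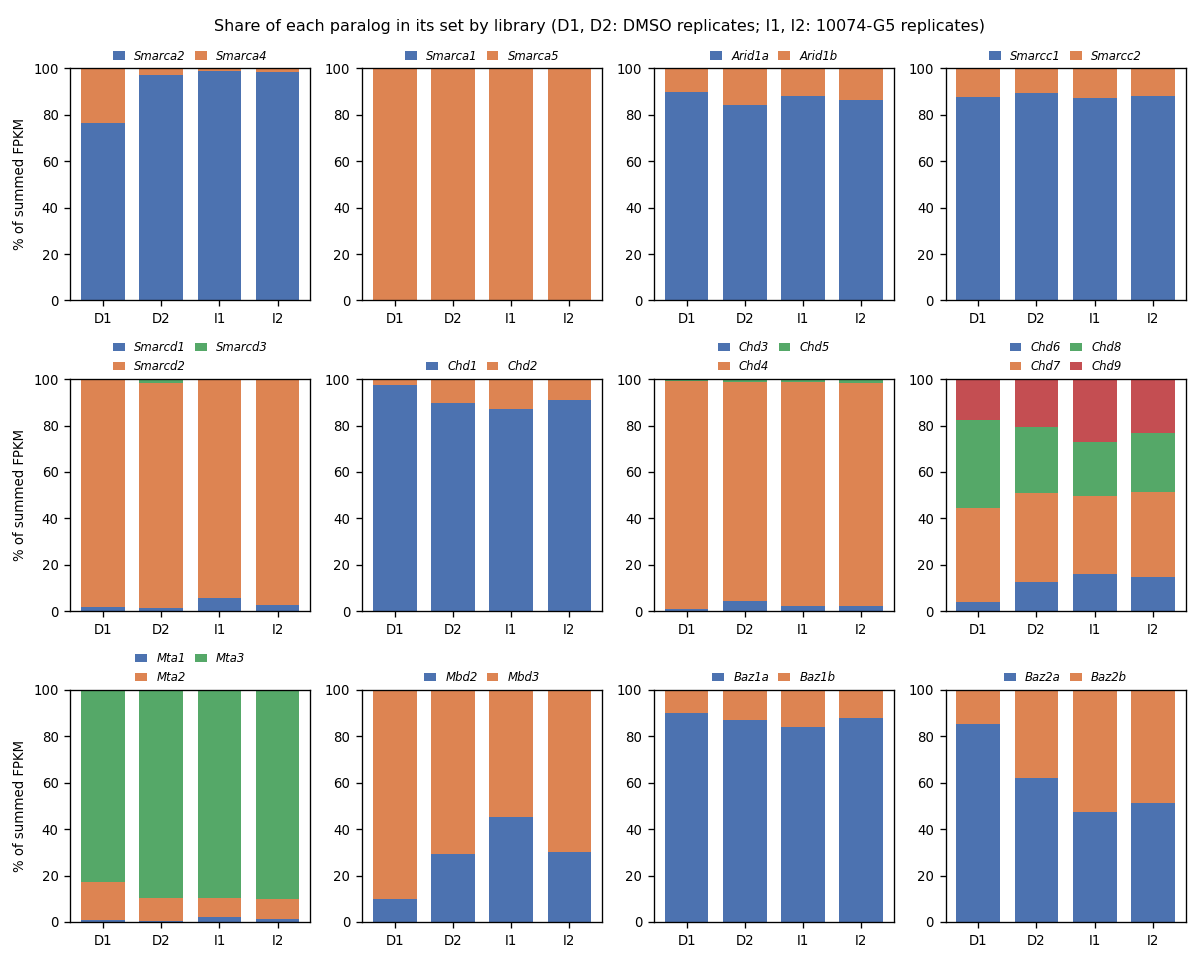
Share of each paralog in the summed FPKM of its set, in percent, for 12 sets and the 4 libraries (D1 and D2, DMSO replicates; I1 and I2, 10074-G5 replicates). The share of Baz2a is 85.1% and 61.9% in the DMSO and 47.4% and 51.2% in the 10074-G5 libraries, while that of Smarcc1 stays between 87.1% and 89.3%.

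Over all 19 ATPase genes, Smarca5 made up 55.7% and 32.1% of the summed FPKM in control and 24.0% and 24.6% in treated embryos, and Smarca2 made up 5.84% and 30.2% in control and 39.5% and 40.2% in treated embryos. Leaving out Smarca2, the share of Smarca5 was 59.1% and 46.0% in control and 39.6% and 41.1% in treated embryos. Ino80 held 1.79% and 1.04% in control and 0.462% and 0.575% in treated embryos. Smarca4 held 1.79% and 0.847% in control and 0.495% and 0.561% in treated embryos. Each of these shares separated the groups, with DMSO replicate 2 between DMSO replicate 1 and the treated libraries.

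Other subunits of the same complexes, which the choice by symbol left out, were read from a list of 42 symbols. Some of these are alternative names of 1 gene, and 40 were listed and 38 tested. Of these, 25 were lower and 13 higher in treated embryos, with a median log2FC of -0.48, and 0 were called by edgeR. When DMSO replicate 1 was left out, 22 were lower and 16 higher, with a median of -0.12. The INO80 and SRCAP partners were lower for 12 of 14 genes, with a median log2FC of -0.79 (-0.35 without DMSO replicate 1). No overlap between the groups was seen in 11 of the lower genes (78.6%) and 1 higher gene, against the shares of 28.3% and 28.9% given above.

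Actr6, an actin-related protein of SRCAP that is needed to load H2A.Z, had 385 and 157 CPM in control and 57.5 and 63.9 CPM in treated embryos. The fold change of Actr6 was -2.16 on the log2 scale (standard error 0.49), with an adjusted p of 0.333 by edgeR's quasi-likelihood test and of 0.00309 by DESeq2 with transcript lengths, and it was -1.36 without DMSO replicate 1. Actr5, an actin-related protein of INO80, had 19.3 and 4.82 CPM in control and 0.928 and 2.34 CPM in treated embryos (log2FC -2.88, standard error 0.89, adjusted p = 0.333 by edgeR's quasi-likelihood test), and its log2FC was -1.54 without DMSO replicate 1. Yeats4, a reader of acetylated histones shared by SRCAP and TIP60, was higher, with 64.0 and 119 CPM in control and 182 and 151 CPM in treated embryos (log2FC 0.86, and 0.50 without DMSO replicate 1).

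**Figure D4:**
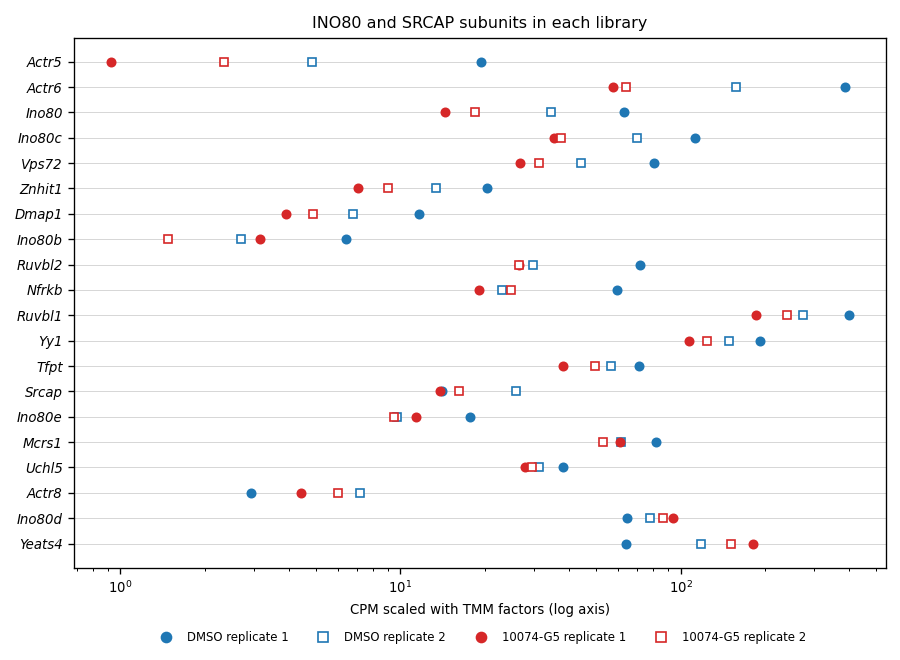
CPM of 6 INO80 and SRCAP genes and their 14 partners in each library on a log axis, ordered by log2FC; blue marks DMSO and red 10074-G5, filled circles replicate 1 and open squares replicate 2. Actr5, Actr6, Ino80 and Ino80c are at the top, with both red marks left of both blue ones, and DMSO replicate 1 is the farthest right for most genes.

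For the partners of the other families the medians were nearer to 0 or rested on fewer genes. The median log2FC was 0.10 for 13 SWI/SNF partners, -0.41 for 6 ISWI partners and -0.06 for 7 NuRD partners. Without DMSO replicate 1 these were 0.19, -0.25 and 0.12, so that the NuRD partners turned direction. Bcl7c, a small SWI/SNF subunit that binds nucleosomes, had 57.8 and 149 CPM in control and 278 and 234 CPM in treated embryos (log2FC 1.305, standard error 0.50, adjusted p = 0.333 by edgeR's quasi-likelihood test). Its unadjusted edgeR p was 0.0320, and its log2FC was 0.79 without DMSO replicate 1. Bcl7c was the only higher gene of the 38 tested partners with such a p below 0.05, against 4.72% of all tested genes. In the lower direction there were 6 such partners (15.8%, against 10.1% of all tested genes).

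Among the NuRD partners, chosen for naming after their values were seen, the deacetylase Hdac1 had 360 and 214 CPM in control and 154 and 136 CPM in treated embryos (log2FC -0.99, and -0.55 without DMSO replicate 1). Its paralog Hdac2 had 89.8 and 134 CPM in control and 175 and 172 CPM in treated embryos (log2FC 0.64, and 0.39 without DMSO replicate 1). Neither was called (adjusted p = 0.333 and 0.419 by edgeR's quasi-likelihood test), and in both the groups did not overlap.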

How the data were processed

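Late two-cell embryos were grouped by the sample labels into 2 DMSO and 2 10074-G5 libraries. According to the study's methods and the submitters' processing notes, the authors aligned read pairs to mm10 with STAR 2.7.10, kept uniquely mapped reads and estimated gene levels with RSEM 1.3.3. Whether reads were counted by strand is not given in the sources used here. The deposited expected count of a gene is RSEM's estimate of its fragments and is not normalized, with 3.97% to 4.49% of values per library not whole numbers. The FPKM deposited by the authors accounts for effective length and library size. The deposited TPM was used to check the unit only, and the deposited transcript lengths for isoforms and 1 alternative.

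Expected counts were rounded, filtered with filterByExpr (minimum count 10, minimum total 15) and tested over 13549 genes with edgeR 4.0.16 in R 4.3.3 (quasi-likelihood test, TMM factors of 0.873, 1.04, 1.04 and 1.06, Benjamini-Hochberg adjustment over all tested genes). The scripts were tested on simulated data. The common biological coefficient of variation was 0.557. Copies made by PCR were counted like molecules, so limits from counts cover counting error only. Alternatives used DESeq2 1.42.0, limma 3.58.1, other scalings and filters, a replicate block and each library left out. Gene positions and promoters are from RefSeq and Smarca2 transcripts from GENCODE (both GRCm38). The names come from a rule: every ATPase, in each family the 2 genes with the smallest edgeR p in each direction and the highest by FPKM, those called by DESeq2, the 2 partners with the smallest p in each direction, and genes under the filter. The remaining members were then named to account for each. The members and lists were chosen with earlier results of these data known.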

Additional observations from a re-analysis of the deposited data

How the results depend on the processing

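With 2 libraries in each group, the calls depended on the tool and above all on the control libraries. Against 0 genes by edgeR, 566 genes were called by DESeq2 on the same genes, 524 on genes with at least 1 count and 512 with transcript lengths, and 644 by edgeR without a filter, while between 0 and 4172 were called with each library left out, the 4172 without DMSO replicate 2. DESeq2 called 2 remodelers in all 3 settings, and between 0 and 15 were called with each library left out, the 15 without DMSO replicate 2 (the cause was not tested). The 5 remodelers with an unadjusted p below 0.05 became 9 by DESeq2 on the same genes, 8 on genes with at least 1 count, 10 by edgeR without a filter and 3 by limma with either pseudocount. With each library left out they numbered from 0 (without either treated library) to 27 (without DMSO replicate 2). The median log2FC of the tested remodelers was -0.19 and -0.20 by limma on log2(FPKM + 1) and log2(FPKM + 0.1), -0.21 with library totals and between -0.34 and -0.19 with each library left out. Left-out libraries gave medians from -0.78 to -0.29 for SWI/SNF, -0.65 to -0.29 for ISWI, -0.17 to 0.36 for CHD and NuRD, -1.12 to -0.49 for INO80 and SRCAP, and -0.0752 to 0.11 for the other SNF2 genes. By limma the ISWI median was -0.26 and -0.28, and that of the other SNF2 genes was 0.14 and 0.14, or 0.13 with library totals. On counts in place of FPKM, the share of Smarca2 against Smarca4 differed between the groups by 25.9 in place of 11.8 percentage points. With library totals the median of all tested genes moved from 0.04 to 0.17.

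Of the 46 tested remodelers, 38 kept their sign under every alternative. The others were Chd2, Chd3, Chd4, Chd7, Hells, Ino80e, Mta1 and Srcap. Hells turned to 0.14 and 0.14 by limma, 0.13 with library totals, 0.0269 with at least 10 counts in every library, 0.000603 without a filter and 0.000368 with the replicate block. Chd7 turned to 0.0243 and 0.0264 by limma and 0.0311 with library totals, and Chd3 to 0.0715 with the replicate block. With each library left out, log2FC ranged from -0.38 to 1.21 for Chd2, -0.71 to 0.99 for Chd3, -0.13 to 0.50 for Chd4, -0.22 to 0.0308 for Chd7, -0.0752 to 0.11 for Hells, -0.77 to 0.11 for Ino80e, -0.0355 to 1.27 for Mta1 and -0.77 to 0.0916 for Srcap. The labels share replicate numbers but name no shared litter or day, and same-numbered libraries did not deviate together (correlation -0.092). With the number as a replicate block, edgeR called 44 genes and 0 remodelers.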
